A study of Mus musculus with 12 samples.

Results

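The genes described here are 10 genes of the mTORC1 complex and of its nutrient-sensing regulators: Mtor, Rptor, Rictor, Tsc1, Tsc2, Rheb, Deptor, Ddit4, Sesn1 and Sesn3. They were chosen by gene symbol, and all 10 were found among the 24537 genes measured. All 10 also passed the filter on low values, which asked for 3 or more of the 12 libraries with an FPKM of 1 or higher and left 10593 genes for testing. FPKM is a level: reads on exons were divided by exon length and by library size, so levels can be compared between genes.

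The study examined how calorie restriction (CR) affects protein synthesis in mouse liver over time, and liver RNA was sequenced on days 25 and 30 of the diet. The animals were male C57Bl/6J mice, 6 weeks old at the start and housed individually. Con mice ate ad libitum, and CR mice received 30% fewer calories of a fortified form of the diet, given daily around midday. There were 4 groups of 3 mice, namely Con at day 25, CR at day 25, Con at day 30 and CR at day 30. The study's methods give heavy water to its mice in the 4 days before sacrifice and do not list the mice used for RNA apart. The hour of collection was not given in the sources used here. The libraries held between 15748720 and 23345475 reads. Hepatocyte markers showed the tissue to be liver: the 8 genes on the list summed to between 40600 and 68630 FPKM in each library, and albumin (Alb) alone averaged 36890 FPKM.

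mTORC1 is the kinase complex that couples amino acids, growth factors and energy to protein synthesis and growth. It holds the kinase Mtor and the scaffold Raptor (Rptor), whereas mTORC2 holds Rictor in place of Raptor. The GTPase Rheb activates mTORC1, the Tsc1 and Tsc2 complex turns Rheb off, and Deptor, Ddit4 (also called REDD1) and the sestrins act as brakes. In liver this pathway responds to feeding and fasting and governs protein synthesis, lipid synthesis and autophagy.

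Of the 10 genes, 2 passed the limma test at day 25 (Benjamini-Hochberg adjusted p under 0.1), against 14.9% of all genes tested. These were Ddit4, which rose in CR mice, and Sesn3, which fell. At day 30, 3 passed, against 24.7% of all genes: Ddit4 rose, while Mtor and Rptor fell. With both days in a single model, which uses the same 12 mice, 4 passed, against 40.6% of all genes: Ddit4 rose, and Mtor, Rptor and Sesn3 fell. The number of changed genes among the 10 was thus near the background on each count. By direction, 1 of 10 rose at each day, against 5.6% of all genes at day 25 and 8.33% at day 30. Those that fell were 1 of 10 at day 25, against 9.34%, and 2 of 10 at day 30, against 16.4%. Over both days 1 of 10 rose and 3 fell, against 14.5% and 26.1% of all genes. The all-gene split over both days, 1536 higher and 2768 lower, became 2229 and 1995 under median-ratio scaling and 2040 and 1993 under quantile normalization. When calls also had to reach a log2 fold change of 1 in either direction, Ddit4 alone passed at day 25, at day 30 and over both days, against 1.48%, 2.21% and 1.66% of all genes. The median log2 fold change of the 10 genes was -0.04 at day 25 and -0.08 at day 30, against -0.04 and -0.07 over all genes tested. In bulk liver, fewer cells of a type and less RNA per cell cannot be told apart.

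**Figure D1:**
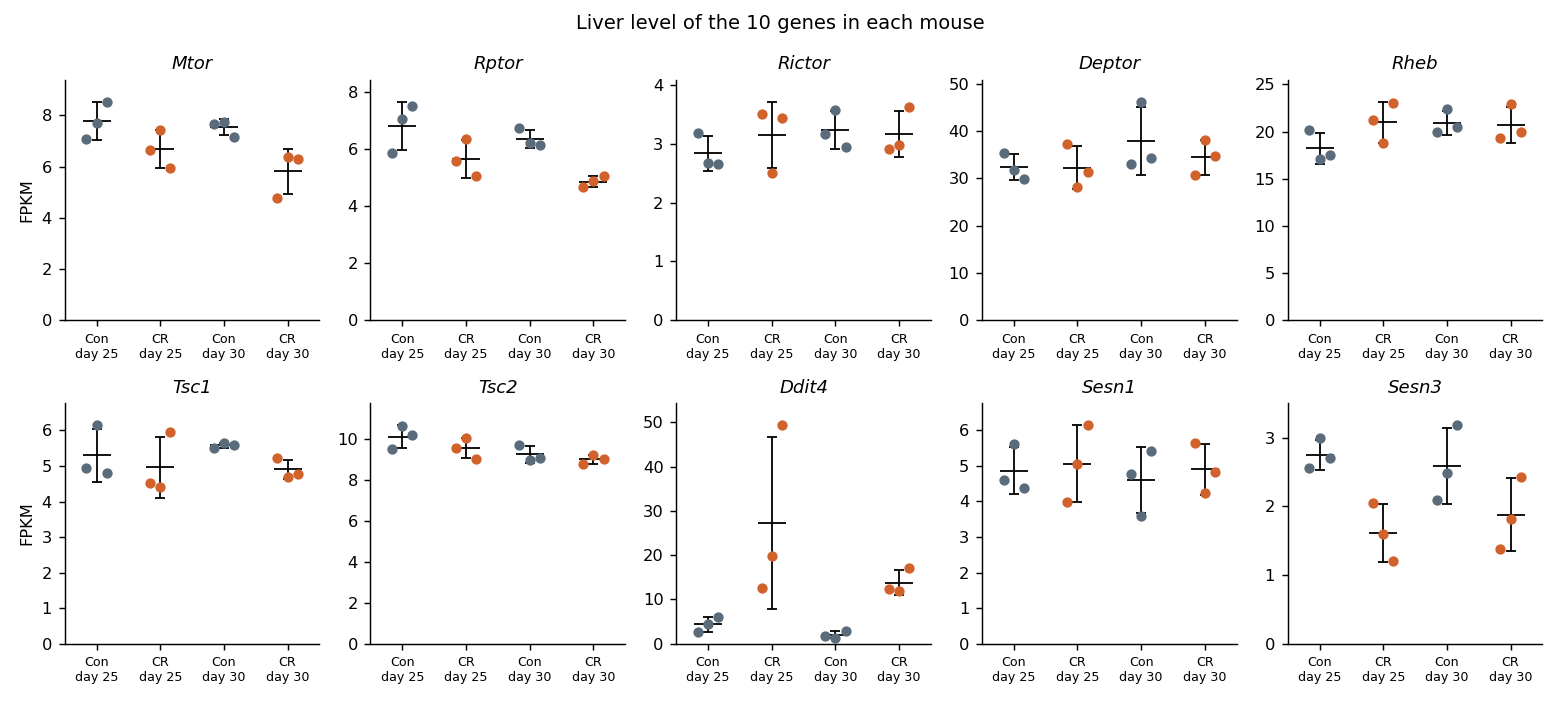
FPKM of the 10 genes in each of the 12 mice, 1 panel a gene, with Con mice in grey and CR mice in orange at days 25 and 30; points are mice, and bars show the mean and SD of 3 mice. Ddit4 lies between 11.9 and 49.4 FPKM in CR mice and between 1.40 and 6.11 in Con mice, while the other panels differ by far less.

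Ddit4, a stress-induced inhibitor that acts on mTORC1 through the Tsc complex, had the largest difference of the 10. Its FPKM was 2.62, 4.37 and 6.11 in the Con mice of day 25 and 12.7, 19.8 and 49.4 in the CR mice of day 25. At day 30 it was 1.77, 1.40 and 2.98 in Con mice and 12.3, 11.9 and 17.0 in CR mice. Every CR mouse of either day lay above every Con mouse of either day, which held for 12.5% of all genes tested in either direction, and for no other of the 10. The group means were 4.37 ± 1.75 (SD, n = 3) and 27.3 ± 19.5 FPKM at day 25, and 2.05 ± 0.830 and 13.8 ± 2.83 at day 30. The ratio of CR to Con means was 6.25 at day 25 and 6.70 at day 30. Without CR mouse 3 of day 25 the ratio of that day was 3.72, and over all mice left out 1 at a time it ran from 3.72 to 7.92 at day 25 and from 5.78 to 8.68 at day 30. On the log2(FPKM + 1) scale, which understates changes of low genes, the difference was 2.23 at day 25 (95% confidence interval 1.38 to 3.08; limma, adjusted p = 0.00517). It was 2.29 at day 30 (1.44 to 3.14; limma, adjusted p = 0.00256) and 2.26 over both days (limma, adjusted p = 6.96e-05). By the size of its rise Ddit4 was number 6 of the 10593 genes at day 25 and number 15 at day 30.

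The CR effect on Ddit4 did not differ detectably between the days (difference 0.06, interval -1.14 to 1.26; limma, adjusted p = 1.0). Within each diet its log2 level was lower at day 30 than at day 25, with a difference of -0.74 in CR mice (limma, adjusted p = 0.615) and of -0.80 in Con mice (limma, adjusted p = 0.683), and neither difference passed. Of the 10 genes Ddit4 varied most between mice of a group: the pooled within-group SD of its log2 level was 0.586, against a median of 0.152 over all genes. CR mouse 3 of day 25, at 49.4 FPKM, was the highest of all 12. Leaving out 1 mouse at a time moved the log2 fold change at day 25 between 1.71 and 2.65, and the call held in each of the 6 fits (limma, adjusted p at most 0.0244). The values rested on 50 to 1668 recovered reads per library.

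Mtor, the kinase, passed at day 30 and over both days, and not at day 25. It stood at 7.10, 7.71 and 8.54 FPKM in Con mice and 6.64, 7.44 and 5.96 in CR mice at day 25. Con mice of day 30 had 7.68, 7.76 and 7.17 FPKM, and CR mice of day 30 had 4.79, 6.37 and 6.28. The groups overlapped at day 25, and at day 30 each CR mouse was below each Con mouse. The log2 fold change was -0.20 at day 25 (interval -0.44 to 0.05; limma, adjusted p = 0.307) and -0.33 at day 30 (interval -0.58 to -0.09; limma, adjusted p = 0.0617). Over both days it was -0.26 (limma, adjusted p = 0.0215). The day 30 call did not survive median-ratio scaling (adjusted p = 0.123) or quantile normalization (0.137). It was also lost without either of 2 Con mice, those at 7.68 (0.137) and 7.76 FPKM (0.149), and without CR mouse 1 of day 30 (0.229), in limma fits whose adjusted p ranged from 0.0449 to 0.229. The log2 fold change was -0.32 and -0.31 without these Con mice and -0.22 without CR mouse 1. At day 25 the log2 fold change ran from -0.27 to -0.13 with 1 mouse left out.

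Rptor, which brings substrates to the kinase, also passed at day 30 and over both days, and not at day 25. In Con mice of day 25 it was 5.88, 7.06 and 7.52 FPKM, and in CR mice of that day 5.57, 6.35 and 5.05. The day 30 values were 6.72, 6.23 and 6.13 in Con mice and 4.66, 4.87 and 5.05 in CR mice. Groups overlapped at day 25 and were apart at day 30, with CR mice lower. The log2 fold change was -0.23 at day 25 (interval -0.45 to -0.01; limma, adjusted p = 0.175), -0.33 at day 30 (interval -0.55 to -0.11; limma, adjusted p = 0.0426) and -0.28 over both days (limma, adjusted p = 0.00849). At day 30 the call was lost under quantile normalization (limma, adjusted p = 0.130), without the Con mouse at 6.72 FPKM (0.124) and without CR mouse 1 (0.129); adjusted p ranged from 0.0194 to 0.130 over all alternatives. At day 25 it passed without Con mouse 1 (limma, adjusted p = 0.0913, range 0.0913 to 0.444 with 1 mouse left out). Over both days Mtor and Rptor passed in each of the 12 fits that left out 1 mouse.

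Rictor, the scaffold of mTORC2, ranged from 2.50 to 3.62 FPKM over the 12 mice and did not pass in any comparison. Its log2 fold change was 0.11 at day 25 (interval -0.15 to 0.36; limma, adjusted p = 0.620) and -0.02 at day 30 (interval -0.28 to 0.23; limma, adjusted p = 0.917). The sign at day 30 turned under median-ratio scaling and quantile normalization. At day 25 the log2 fold change ran from 0.041 to 0.23 with 1 mouse left out. The ratio of Rptor to Rictor FPKM averaged 2.44 ± 0.525 in Con and 1.86 ± 0.590 in CR mice at day 25, and 1.98 ± 0.209 and 1.54 ± 0.128 at day 30 (SD, n = 3). At day 30 this ratio was at most 1.63 in CR mice and at least 1.74 in Con mice, so the groups were apart, whereas at day 25 they overlapped; the ratio was not tested. Deptor, an inhibitor bound to Mtor in both complexes, had the highest mean level of the 10 and ranged from 28.2 to 46.2 FPKM, and its log2 fold changes were -0.01 at day 25, where median-ratio scaling turned the sign, and -0.12 at day 30.

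The switch upstream of mTORC1 did not pass at either day. Rheb, the activating GTPase, ranged from 17.1 to 23.1 FPKM, with log2 fold changes of 0.19 at day 25 (interval -0.04 to 0.42; limma, adjusted p = 0.290) and -0.02 at day 30, where the sign turned under median-ratio scaling and quantile normalization. Tsc1, which stabilizes Tsc2, ranged from 4.41 to 6.15 FPKM. At day 30 it was 5.51, 5.65 and 5.59 in Con mice and 5.22, 4.70 and 4.79 in CR mice, with every CR mouse lower, but its log2 fold change of -0.16 did not pass (interval -0.40 to 0.08; limma, adjusted p = 0.347). Counting Tsc1, the CR and Con mice did not overlap for 4 of the 10 genes at day 30, against 36.4% of all genes, and for 2 at day 25, against 28.2%. Tsc2, the subunit that acts on Rheb, ranged from 8.77 to 10.6 FPKM and had the smallest pooled within-group SD of the 10, 0.0597 on the log2 scale. Its log2 fold changes were -0.07 at day 25 and -0.03 at day 30, and the latter changed sign under median-ratio scaling and quantile normalization. Of the 9620 exonic bases annotated to Tsc2, 7.2% also lie in exons of Pkd1 on the other strand, and the counting was not stated to use strand. The level of Tsc2 was counted on 1 transcript of 6095 bases, for which the share was not computed. Exons on the other strand also shared 3.41% of the bases of Deptor (Gm9920) and 0.624% of those of Rptor (Rptoros).

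**Figure D2:**
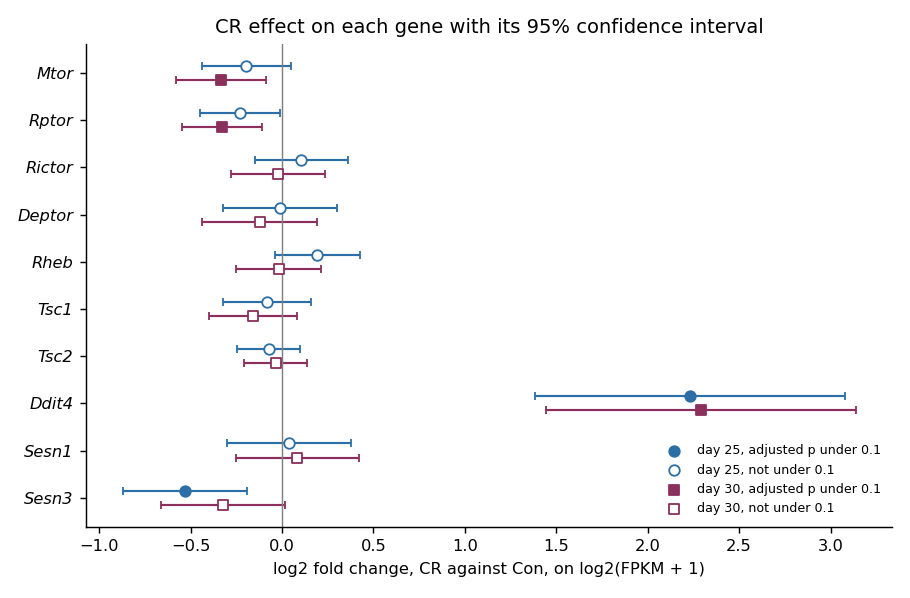
Log2 fold change of CR against Con for each of the 10 genes at day 25 (circles) and day 30 (squares), with 95% confidence intervals from limma on log2(FPKM + 1); filled symbols passed at an adjusted p under 0.1. Ddit4 lies at 2.23 and 2.29, and every other gene lies between -0.53 and 0.19.

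The sestrins, sensors of leucine and stress that restrain mTORC1 through the GATOR complexes, include Sesn1 and Sesn3 of the 10 genes. Sesn3 was 2.56, 2.99 and 2.71 FPKM in Con mice and 2.05, 1.60 and 1.21 in CR mice at day 25. At day 30 it was 2.09, 2.49 and 3.18 in Con mice and 1.38, 1.82 and 2.44 in CR mice. At day 25 all CR mice were below all Con mice, and at day 30 the groups overlapped. The log2 fold change was -0.53 at day 25 (interval -0.87 to -0.19; limma, adjusted p = 0.0537), -0.32 at day 30 (interval -0.66 to 0.02; limma, adjusted p = 0.179) and -0.43 over both days (limma, adjusted p = 0.0111). The effects at the 2 days did not differ detectably (difference 0.21, interval -0.27 to 0.69; limma, adjusted p = 1.0).

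Sesn3 had the lowest mean level of the 10 and rested on 52 to 154 reads per library. Its day 25 call was lost without the filter on low values (limma, adjusted p = 0.111). It was also lost without Con mouse 2 (0.131), Con mouse 3 (0.113), CR mouse 2 (0.101) or CR mouse 3 (0.188), with adjusted p from 0.0477 to 0.188 over all alternatives. At day 30 it passed without CR mouse 3 (limma, adjusted p = 0.0811, range over all alternatives 0.0681 to 0.506). With 1 mouse left out, the log2 fold change of Sesn3 at day 30 ran from -0.46 to -0.19. The call over both days held in each of the 12 fits that left out 1 mouse (limma, adjusted p at most 0.0284).

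Sesn1 ranged from 3.59 to 6.14 FPKM, and its log2 fold changes were 0.04 at day 25 (interval -0.30 to 0.38) and 0.08 at day 30 (interval -0.25 to 0.42). Sesn2, the sestrin outside the 10 genes and the best known leucine sensor among them, was 2.82, 3.91 and 2.49 FPKM in Con and 4.11, 4.57 and 4.18 in CR mice at day 25. Its day 30 values were 2.57, 1.58 and 1.44 in Con mice and 2.76, 3.48 and 3.24 in CR mice. CR mice were above Con mice at each day, in the direction opposite to Sesn3. Of all genes, 28.2% were apart in either direction at day 25 and 36.4% at day 30. Sesn2 rose at day 30 (log2 fold change 0.56; limma, adjusted p = 0.0283), a call lost without the Con mouse at 1.44 FPKM (0.102; range with 1 mouse left out 0.00921 to 0.102). At day 25 its log2 fold change of 0.39 did not pass (limma, adjusted p = 0.137), but it passed with the replicate number as a block (0.0635), under median-ratio scaling (0.0684), under quantile normalization (0.0682) and without Con mouse 2 (0.0626), in a range from 0.0626 to 0.358. The ratio of Sesn2 to Sesn3 FPKM was 1.11 ± 0.194 in Con and 2.78 ± 0.733 in CR mice at day 25, and 0.771 ± 0.405 and 1.75 ± 0.364 at day 30 (SD, n = 3); it was not tested. Ddit4l, the close relative of Ddit4, stayed between 0.035 and 0.32 FPKM in every mouse and was not tested.

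By mean level over the 12 mice, the order was Deptor at 34.2 FPKM, Rheb at 20.2, Ddit4 at 11.9, Tsc2 at 9.48, Mtor at 6.95, Rptor at 5.93, Tsc1 at 5.19, Sesn1 at 4.85, Rictor at 3.10 and Sesn3 at 2.21. Deptor was above Rheb and Tsc2 above Mtor in each of the 12 mice, with ranges that did not touch. For the other neighbours the ranges overlapped, although Mtor was above Rptor within each of the 12 mice and Sesn1 above Rictor likewise. The place of Ddit4 depended on diet, with a mean of 3.21 FPKM over the 6 Con mice and 20.5 over the 6 CR mice.

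None of the 10 genes passed the limma test for a CR effect that differed between the days, against 0.00944% of all genes; 0 of 10 had an unadjusted p under 0.05, and voom on recovered reads called 0. Likewise 0 of 10 passed for day 30 against day 25 in CR mice, against 0.321% of all genes, or in Con mice, against 0.0% of all genes. In both of these limma comparisons 0 of 10 had an unadjusted p under 0.05, and voom called 0. So Mtor and Rptor passing at day 30 and not at day 25, and Sesn3 the reverse, did not amount to a detected difference between the days.

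The other genes of the pathway were taken from 6 lists with 71 genes, of which 62 passed the filter. At day 25, 3 rose and 4 fell, where 14.9% of all genes tested passed. At day 30, 3 rose and 9 fell, where 24.7% of all genes passed, and over both days 9 rose and 16 fell, where 40.6% passed. These counts were at or below the all-gene shares, so the genes named from these lists stand for themselves and not for the pathway. The median log2 fold change of the 62 genes was -0.03 at day 25 and -0.09 at day 30, against -0.04 and -0.07 over all genes. Over all genes 593 rose and 989 fell at day 25, and 882 rose and 1737 fell at day 30, counts that depended on scaling and on single mice. Median-ratio scaling gave 929 higher and 799 lower at day 25 and 1319 and 1236 at day 30; quantile normalization gave 758 and 828, and 1252 and 1217. The replicate block at day 25 gave 890 and 1187. Without 1 mouse, the day 25 counts moved to 319 higher and 681 lower (Con mouse 1), 609 and 637 (Con mouse 2), 371 and 703 (Con mouse 3), 372 and 632 (CR mouse 1) or 369 and 524 (CR mouse 3). The day 30 counts moved to 517 and 980 without CR mouse 1.

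Among other subunits and assembly factors of the complexes, 0 of 7 passed limma at day 25 (0 with an unadjusted p under 0.05, and 0 by voom), and 2 fell at day 30, where 16.4% of all genes fell; that share and 5.6% rising at day 25 also stand beside the smaller counts of the Tsc, Rag and AMPK lists. Akt1s1, which encodes the mTORC1 inhibitor PRAS40, had a log2 fold change of -0.26 at day 30 (limma, adjusted p = 0.0627). Prr5, an mTORC2 subunit, had -0.43 (limma, adjusted p = 0.0418). The Akt1s1 call was lost without the Con mouse at 23.7 FPKM (limma, adjusted p = 0.157), the Con mouse at 23.0 (0.140), CR mouse 2 (0.125) or CR mouse 3 (0.152). It was also lost under median-ratio scaling (limma, adjusted p = 0.170), under quantile normalization (0.110) and with only the groups compared in the fit (0.108); all alternatives ranged from 0.0283 to 0.170. That of Prr5 was lost without the Con mouse at 3.23 FPKM (limma, adjusted p = 0.108) or CR mouse 3 (0.134), in a range from 0.0202 to 0.134. Mlst8, the subunit shared by both complexes, ranged from 1.26 to 2.07 FPKM, with log2 fold changes of 0.01 at day 25, where TPM turned the sign, and -0.08 at day 30.

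Of the 5 tested partners of Tsc and Rheb, 0 passed limma at day 25 (1 with an unadjusted p under 0.05, and 0 by voom). Tbc1d7, the small subunit of the Tsc complex, fell at day 30, with a log2 fold change of -0.34 (limma, adjusted p = 0.0819). That call held without CR mouse 2 and was lost without each other mouse of day 30, without the filter on low values, under median-ratio scaling and under quantile normalization (limma, adjusted p from 0.0375 to 0.233 over all alternatives). At day 25 it was also -0.34, with an adjusted p of 0.113 in limma, 0.0981 with the replicate block, 0.0658 as TPM and 0.0225 without Con mouse 1 (range 0.0225 to 0.296). Of the 11 tested genes of the Rag GTPases, Ragulator and folliculin, which bring mTORC1 to the lysosome, 0 passed limma at day 25 (1 with an unadjusted p under 0.05, and 0 by voom). Rraga, encoding RagA, fell at day 30 by 0.32 on the log2 scale (limma, adjusted p = 0.0701). The call was lost without the Con mouse at 15.6 FPKM (limma, adjusted p = 0.126), the Con mouse at 17.2 (0.203), CR mouse 1 (0.240) or CR mouse 3 (0.180). Median-ratio scaling (limma, adjusted p = 0.131), quantile normalization (0.106) and a fit of only the groups compared (0.146) ended it too, in a range from 0.00956 to 0.240.

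The amino acid branch, with GATOR1, GATOR2, KICSTOR and amino acid sensors, held 14 tested genes, of which 2 fell at day 25, and 1 rose and 3 fell at day 30, against 14.9% and 24.7% of all genes that passed. Lars, the leucyl-tRNA synthetase that also acts as a leucine sensor, was 7.56, 8.79 and 9.41 FPKM in Con mice and 6.45, 6.28 and 5.83 in CR mice at day 25. Its day 30 values were 8.66, 7.61 and 8.07 in Con mice and 5.04, 6.65 and 5.35 in CR mice. Every CR mouse was below every Con mouse across the days, and 12.5% of all genes tested were apart in this way in either direction. It fell by 0.41 on the log2 scale at day 25 (limma, adjusted p = 0.0334) and by 0.45 at day 30 (limma, adjusted p = 0.0142). The day 25 call was lost without Con mouse 3 (limma, adjusted p = 0.114) or CR mouse 3 (0.113), in a range from 0.0251 to 0.114.

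Mios, a GATOR2 subunit, fell by 0.28 on the log2 scale at day 25 (limma, adjusted p = 0.0983) and by 0.33 at day 30 (limma, adjusted p = 0.0389). Its day 25 call held without CR mouse 1 and was lost without each other mouse of that day and in 6 of the 9 other alternatives (limma, adjusted p from 0.0863 to 0.290 over all). At day 30 it was lost without the Con mouse at 4.70 FPKM (limma, adjusted p = 0.133), CR mouse 1 (0.125) or CR mouse 3 (0.102), in a range from 0.0312 to 0.133. Wdr59, also of GATOR2, fell by 0.32 at day 30 (limma, adjusted p = 0.0271). GATOR2 works against GATOR1, the inhibitor of the Rag GTPases, and the sestrins bind GATOR2. Of 8 tested AMPK and LKB1 genes, Prkag2, a regulatory subunit of the energy sensor AMPK, rose at day 25 by 0.51 (limma, adjusted p = 0.0296). At day 30 its log2 fold change of 0.27 did not pass (limma, adjusted p = 0.169, and 0.0680 without CR mouse 2, range 0.0680 to 0.525). This fold change ran from 0.14 to 0.39 with 1 mouse left out. Of the 8 genes, 0 passed limma at day 30 (0 with an unadjusted p under 0.05, and 0 by voom).

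Among 17 tested substrates and outputs, 2 rose and 2 fell at each day, against 14.9% of all genes that passed at day 25 and 24.7% at day 30. Eif4ebp3, a relative of the translation repressor 4E-BP1, was 30.2, 59.0 and 53.4 FPKM in Con mice and 63.0, 111.8 and 118.8 in CR mice at day 25. By day 30 the values were 17.5, 54.6 and 34.3 in Con mice and 99.7, 68.3 and 71.8 in CR mice. All 6 CR mice were above all 6 Con mice, while 12.5% of all genes were apart over both days in either direction. Its log2 fold change was 1.03 at day 25 (limma, adjusted p = 0.107, and 0.00256 with the replicate block) and 1.27 at day 30 (limma, adjusted p = 0.0362). At day 25 it also passed under median-ratio scaling (limma, adjusted p = 0.0883), with only the groups compared (0.0783), by voom (0.0845) and without CR mouse 1 (0.0789), in a range from 0.00256 to 0.309. The day 30 call was lost without the Con mouse at 17.5 FPKM (limma, adjusted p = 0.123) or CR mouse 1 (0.135), in a range from 0.0135 to 0.135. Eif4ebp1 and Eif4ebp2, the main forms, did not pass, with log2 fold changes of 0.10 and -0.05 at day 25 and 0.11 and -0.09 at day 30; median-ratio scaling turned the sign of Eif4ebp2 at day 25. Nor did Rps6kb1, the S6 kinase gene, at -0.16 and -0.20. With 1 mouse left out, Rps6kb1 ran from -0.26 to -0.049 at day 25 and from -0.25 to -0.11 at day 30.

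Pdcd4, a repressor of translation that S6 kinase marks for destruction, was 47.6, 43.3 and 40.7 FPKM in Con mice and 33.7, 28.3 and 30.9 in CR mice at day 25. The values of day 30 were 52.1, 54.4 and 64.7 in Con mice and 34.6, 37.4 and 38.4 in CR mice. All CR mice were lower than all Con mice, against 12.5% of all genes apart over both days in either direction. It fell by 0.49 on the log2 scale at day 25 (limma, adjusted p = 0.0164) and by 0.61 at day 30 (limma, adjusted p = 0.00339), and held in all 6 fits without 1 mouse at each day. Larp1, which binds mRNAs of ribosomal proteins, fell by 0.31 at day 25 (limma, adjusted p = 0.0837) and by 0.35 at day 30 (limma, adjusted p = 0.0382). Its day 25 call held without CR mouse 1 and was lost without each other mouse of that day, under median-ratio scaling, as TPM and with only the groups compared (limma, adjusted p from 0.0464 to 0.223 over all). Its day 30 call was lost without the Con mouse at 31.7 FPKM (limma, adjusted p = 0.114) or CR mouse 1 (0.138), in a range from 0.0346 to 0.138.

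Lpin1, a phosphatidate phosphatase whose entry into the nucleus mTORC1 limits, rose by 2.48 at day 25 (limma, adjusted p = 0.00294) and 3.01 at day 30 (limma, adjusted p = 0.000488). Tfeb, the lysosomal transcription factor that mTORC1 keeps in the cytoplasm, rose by 0.42 at day 25 (limma, adjusted p = 0.0699), and its 0.33 at day 30 did not pass (limma, adjusted p = 0.111). The day 25 call held without Con mouse 2 and was lost without each other mouse of that day, without the filter on low values and with only the groups compared (limma, adjusted p from 0.0357 to 0.226 over all). Without Con mouse 1 the log2 fold change was 0.27. At day 30 it passed under median-ratio scaling (limma, adjusted p = 0.0524), under quantile normalization (0.0447) and by voom (0.0970), in a range from 0.0447 to 0.347. These are levels of mRNA, and neither kinase activity nor phosphorylation was measured.

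**Figure D3:**
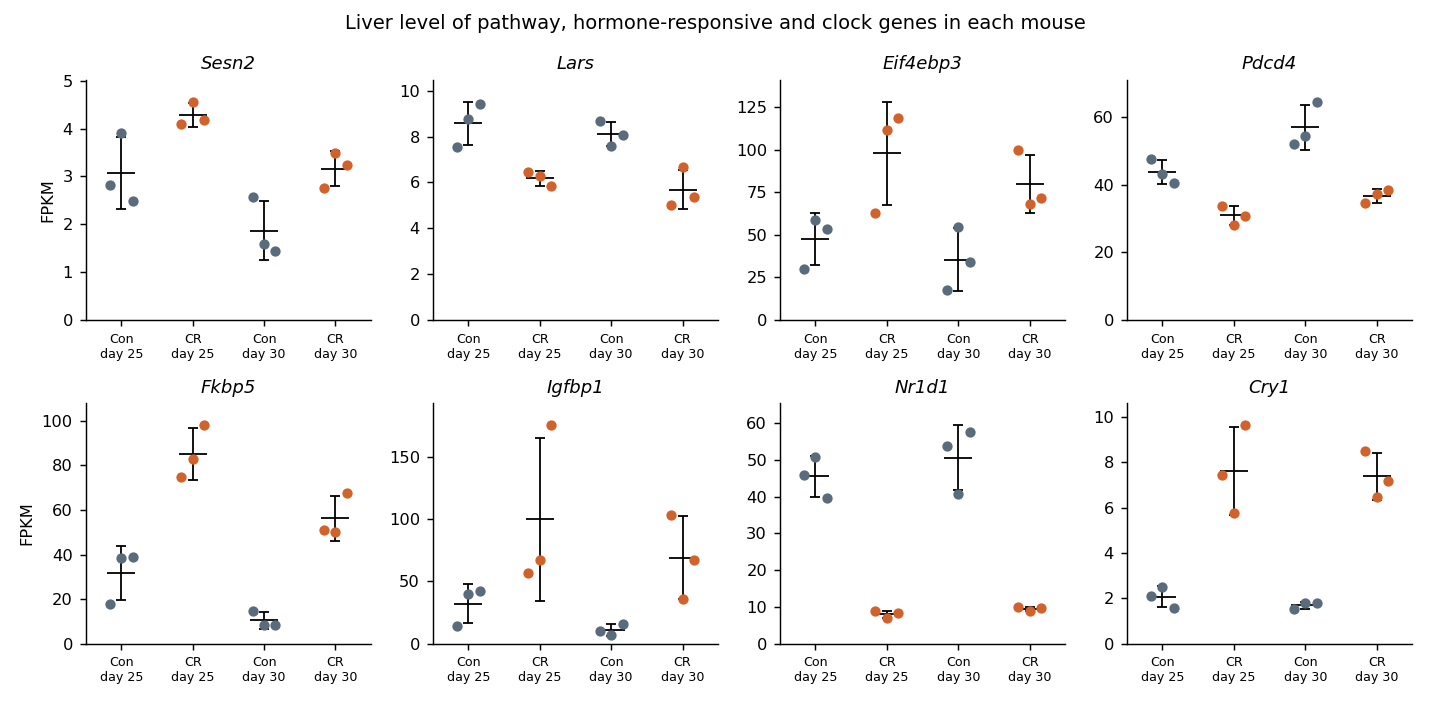
FPKM in each of the 12 mice of pathway genes (Sesn2, Lars, Eif4ebp3, Pdcd4), hormone-responsive genes (Fkbp5, Igfbp1) and clock genes (Nr1d1, Cry1); points are mice, Con in grey and CR in orange, and bars show the mean and SD of 3 mice. Nr1d1 lies between 6.96 and 9.91 FPKM in CR mice and between 39.8 and 57.4 in Con mice.

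Ddit4 and the sestrins are known to be induced by glucocorticoids, FOXO factors, p53 or ATF4, so lists of genes that respond to each were read beside them. Of 10 genes responsive to glucocorticoids, 6 rose in the limma test at each day, and 9 rose over both days, against 5.6%, 8.33% and 14.5% of all genes that rose at day 25, at day 30 and over both days. Their median log2 fold change was 1.25 at day 25 and 0.97 at day 30. Fkbp5, a chaperone of the glucocorticoid receptor, was 17.8, 38.6 and 38.9 FPKM in Con and 74.8, 82.9 and 98.0 in CR mice at day 25. Its day 30 values were 14.8, 8.37 and 8.27 in Con mice and 50.9, 50.1 and 67.8 in CR mice. All CR mice were above all Con mice, as for Ddit4, against 12.5% of all genes apart over both days in either direction. Fkbp5 rose by 1.47 on the log2 scale at day 25 (limma, adjusted p = 0.00809) and 2.35 at day 30 (limma, adjusted p = 0.000304). Zbtb16, a transcription factor, rose by 1.40 and 2.04 (limma, adjusted p = 0.0184 and 0.00165), and Tat, the liver tyrosine aminotransferase, by 1.34 and 1.69 (limma, adjusted p = 0.0149 and 0.00287). These 3 genes held in all fits that left out 1 mouse.

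Of 10 FOXO targets, 1 rose at day 25, 2 at day 30 and 5 over both days, against 5.6%, 8.33% and 14.5% of all genes, and the median log2 fold change was 0.27 and 0.33 at the days. Igfbp1, an insulin-repressed binding protein for growth factors, was 14.4, 40.0 and 42.1 FPKM in Con and 56.7, 67.6 and 175.3 in CR mice at day 25. The day 30 values were 10.3, 6.88 and 15.7 in Con mice and 103.2, 36.2 and 67.6 in CR mice. CR mouse 3 of day 25 was the highest of the 12 for Igfbp1, as for Ddit4. Its log2 fold change was 1.56 at day 25 (limma, adjusted p = 0.0741) and 2.49 at day 30 (limma, adjusted p = 0.00634). The day 25 call was lost without CR mouse 3 (limma, adjusted p = 0.247) or Con mouse 1 (0.240), and without the filter on low values (0.156); over all alternatives it ranged from 0.0135 to 0.247. Pck1, a gluconeogenic enzyme, rose at day 30 by 1.02 (limma, adjusted p = 0.00344).

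Of 6 tested p53 targets, 1 rose and 1 fell at day 25, and 2 fell at day 30, against 14.9% and 24.7% of all genes that passed. Cdkn1a, the cell cycle inhibitor p21, was 2.25, 1.26 and 3.36 FPKM in Con and 7.52, 5.79 and 18.1 in CR mice at day 25, the highest again being CR mouse 3. It rose by 1.70 on the log2 scale (limma, adjusted p = 0.0113), and at day 30 its 0.70 did not pass (limma, adjusted p = 0.192; 0.0753 with a pseudocount of 0.1 and 0.0725 with only the groups compared, in a range from 0.0231 to 0.440). With a pseudocount of 0.1 the Cdkn1a log2 fold change at day 30 was 1.35, and over all alternatives it ran from 0.46 to 1.52. Mdm2, a p53 target and its inhibitor, fell by 0.29 at day 25 (limma, adjusted p = 0.0406) and by 0.42 at day 30 (limma, adjusted p = 0.00524). The day 25 call was lost without Con mouse 1 (limma, adjusted p = 0.108), without Con mouse 2 (0.116) and with only the groups compared (0.116), in a range from 0.0396 to 0.116. Ccng1 fell by 0.39 at day 30 (limma, adjusted p = 0.0293), a call lost without the Con mouse at 11.2 FPKM (0.111) or CR mouse 1 (0.121; range 0.0203 to 0.121). At day 25 its -0.28 had an adjusted p of 0.141 in limma and 0.0933 with the replicate block (range 0.0933 to 0.312).

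Of 7 tested ATF4 targets, 1 rose at day 25, and 1 rose and 1 fell at day 30, against 14.9% and 24.7% of all genes that passed. Vldlr, a lipoprotein receptor, rose by 0.48 at day 25 (limma, adjusted p = 0.0871) and by 0.72 at day 30 (limma, adjusted p = 0.0108). The day 25 call held without CR mouse 3 and was lost without each other mouse of that day, with a pseudocount of 0.1 and without the filter on low values (limma, adjusted p from 0.0413 to 0.217 over all). With a pseudocount of 0.1 the log2 fold change was 1.01 at day 25 and 1.60 at day 30, and by voom it was 1.14 and 1.89. A change that grows so much with a smaller pseudocount places Vldlr under 1 FPKM in most Con mice. It thus reached the filter mainly through CR mice, where it was higher, and its rise, the only 1 on this list, adds no support. Trib3, a pseudokinase, fell by 0.80 at day 30 (limma, adjusted p = 0.0694). That call was lost without the Con mouse at 9.81 FPKM (limma, adjusted p = 0.190), the Con mouse at 10.1 (0.206), CR mouse 1 (0.191) or CR mouse 3 (0.177), and without the filter on low values (0.141), in a range from 0.0193 to 0.206. At day 25 its -0.61 had an adjusted p of 0.200 in limma and 0.0209 with the replicate block (range 0.0209 to 0.453). The log2 fold change of Trib3 at day 25 ran from -0.85 to -0.38 with 1 mouse left out. No factor was measured directly, and which of them acted on Ddit4, Sesn2 or Sesn3 was not tested.

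Of 11 clock genes tested, 2 rose and 2 fell at day 25, against 14.9% of all genes that passed, and 3 rose and 2 fell at day 30, against 24.7%; the others did not pass. Nr1d1, the repressor REV-ERB alpha, was 45.9, 50.9 and 39.8 FPKM in Con and 8.79, 6.96 and 8.23 in CR mice at day 25. Its day 30 values were 53.7, 40.7 and 57.4 in Con mice and 9.91, 8.94 and 9.70 in CR mice. It fell by 2.37 and 2.28 on the log2 scale (limma, adjusted p = 5.1e-06 and 4.02e-06). Cry1 rose by 1.47 and 1.63 (limma, adjusted p = 0.000386 and 7.6e-05), Per2 by 1.35 and 0.97 (limma, adjusted p = 0.000386 and 0.00132), and Clock fell by 0.66 and 0.76 (limma, adjusted p = 0.0176 and 0.00572). Per1, a clock gene that also responds to glucocorticoids, rose by 0.82 at day 30 (limma, adjusted p = 0.0658). This call was lost without the Con mouse at 6.58 FPKM (limma, adjusted p = 0.175), the Con mouse at 5.20 (0.225), CR mouse 1 (0.191) or CR mouse 3 (0.112), and without the filter on low values (0.133), in a range from 0.00438 to 0.225. At day 25 its 0.51 had an adjusted p of 0.288 in limma and 0.0581 with the replicate block (range 0.0581 to 0.658). This log2 fold change ran from 0.26 to 0.65 with 1 mouse left out. CR mice ate at midday and Con mice at any hour, so meal time and food intake cannot be told apart here; the part of the clock in the Ddit4 result was not tested.

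Some markers of other liver cells passed the test, which 14.9% of all genes did at day 25 and 24.7% at day 30. Kupffer cell and macrophage markers summed to 42.9, 69.8 and 40.5 FPKM in Con and 26.3, 34.6 and 29.2 in CR mice at day 25, and 4 of the 8 fell. At day 30 they summed to 54.1, 47.6 and 37.0 in Con mice and 39.4, 48.8 and 35.9 in CR mice, and 1 of the 8 rose. Cd5l was the most abundant of them, with a mean of 12.9 FPKM, and none was at 0 in every mouse. The sums were apart at day 25 and overlapped at day 30.

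Sinusoidal endothelial markers summed to 51.4, 70.9 and 49.0 FPKM in Con and 63.1, 66.3 and 73.1 in CR mice at day 25, and 1 of 8 rose. At day 30 the sums were 54.0, 47.2 and 45.9 in Con mice and 69.2, 62.0 and 65.2 in CR mice, and 4 of 8 rose; Clec4g was the most abundant, at 20.8 FPKM. Stellate cell and fibroblast markers summed to 59.5, 55.6 and 50.8 FPKM in Con and 64.6, 66.3 and 61.5 in CR mice at day 25, and 1 of 6 tested rose. At day 30 the sums were 57.1, 52.7 and 46.7 in Con mice and 64.6, 81.0 and 67.0 in CR mice, and 3 of 6 rose. Of those that rose, Des lay between 0.45 and 0.91 FPKM in Con mice and reached 1 only in CR mice. It thus passed the filter only through the group where it was higher, and its rise adds no support. Dcn led the stellate markers, at 50.3 FPKM. The stellate sums were higher in every CR mouse at each day, and the endothelial sums were so at day 30 and overlapped at day 25.

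Hepatocyte markers summed to a mean of 51610 ± 3741 FPKM in Con and 59050 ± 1486 in CR mice at day 25, and 45460 ± 4697 and 63530 ± 4771 at day 30 (SD, n = 3), with every CR mouse above every Con mouse at each day. Most of each sum was Alb, with means of 33010 and 38410 FPKM at day 25 and 29730 and 46410 at day 30. The other markers went both ways. Log2 fold changes of Apoa1, Apob and Serpina1a were -0.24, -0.37 and -0.14 at day 25 and -0.23, -0.44 and -0.17 at day 30. Of the 8 hepatocyte markers, 2 rose at day 25 (Tat and Cyp2e1), and 3 rose (Alb, Tat and Cps1) and 1 fell (Apob) at day 30. Tat is also on the glucocorticoid list. Lymphocyte and neutrophil markers were near 0, with sums of at most 2.52 and 1.44 FPKM, Cd79b and S100a8 leading and Ly6g at 0 in every mouse. Cholangiocyte markers summed to between 7.60 and 17.8 FPKM, with Spp1 leading at 10.9 FPKM, and neither of those tested passed. Of 4 tested red cell genes, 1 (Alas2) fell at each day, and Hbb-bs led at 324.5 FPKM. At day 30 the log2 fold change was -1.49 for Alas2, whereas Hba-a1, Hbb-bs and Hbb-bt had 0.75, 0.79 and 0.77 and did not pass. Red cell sums averaged 588.5 ± 348.4 FPKM in Con and 478.9 ± 68.0 in CR mice at day 25. At day 30 they averaged 312.5 ± 131.1 and 501.1 ± 332.5 (SD, n = 3). The part of these cell types in the results for Mtor, Rptor, Ddit4 and Sesn3 was not tested.

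For the 4 genes that passed, the genes with the most similar pattern were those with the highest Pearson correlation of log2(FPKM + 1) over the 12 mice, a description that includes the diet difference. For Ddit4 they were Slc25a51 (0.962), Fmo2 (0.962) and Fam107a (0.960), and after group means were taken off the values were 0.775, 0.773 and 0.869. Fam107a was at most 0.51 FPKM in Con mice and passed the filter only through CR mice. For Mtor they were Pigq (0.954), Tgfbrap1 (0.951) and Myo5b (0.942), and 0.928, 0.927 and 0.900 after group means were taken off. Rptor shared Pigq (0.951) with Mtor, beside Hgs (0.961) and Adck1 (0.950), with 0.879, 0.873 and 0.891 within groups. For Sesn3 they were Wbp11 (0.947), E2f3 (0.942) and Ctnnd1 (0.925), with 0.954, 0.850 and 0.879 within groups. These genes were selected as the highest of all tested, so high values are given by the choice.

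Because Mtor, Rptor and Sesn3 fell and Ddit4 rose over both days, the bases just before the start of each are shown. In mm10, Ddit4 spans chr10:59949675-59951770, Sesn3 chr9:14276301-14326134, Mtor chr4:148448582-148557685 and Rptor chr11:119602905-119899591. RefSeq promoters (GRCm38.p6, the assembly also called mm10) matched 9 of the 10 genes. The 250 bases before the start were searched on both strands for GTAAACA (bound by FOXO factors), CACGTG (an E-box), TGTTCT (half-site of the glucocorticoid response element) and TGATGNAA (ATF4 with C/EBP). Of 32851 promoters, 3.17%, 6.02%, 16.1% and 3.45% held these letters. None of the 4 sequences shown held any of them, which says nothing about sites elsewhere, so no letters are in capitals. The only match among the 9 genes was an E-box before Rheb. The sequences below run 5′ to 3′ on the strand of each gene. Ddit4 lies on the minus strand at chr10:59951771-59952020, Sesn3 on the plus strand at chr9:14276051-14276300, Mtor on the plus strand at chr4:148448332-148448581 and Rptor on the plus strand at chr11:119602655-119602904. Bases G and C made up 70.0%, 59.6%, 54.4% and 37.6% of them, against a median of 52.4% over all promoters.
Ddit4: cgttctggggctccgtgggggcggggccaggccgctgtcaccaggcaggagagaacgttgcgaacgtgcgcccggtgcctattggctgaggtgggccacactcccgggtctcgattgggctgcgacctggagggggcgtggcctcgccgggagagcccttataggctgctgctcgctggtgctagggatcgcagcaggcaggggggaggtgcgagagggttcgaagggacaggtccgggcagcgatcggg
Sesn3: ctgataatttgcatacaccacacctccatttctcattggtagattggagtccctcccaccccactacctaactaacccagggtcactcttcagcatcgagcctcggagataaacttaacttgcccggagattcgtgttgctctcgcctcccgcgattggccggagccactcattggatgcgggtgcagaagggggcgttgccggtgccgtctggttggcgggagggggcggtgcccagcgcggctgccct
Mtor: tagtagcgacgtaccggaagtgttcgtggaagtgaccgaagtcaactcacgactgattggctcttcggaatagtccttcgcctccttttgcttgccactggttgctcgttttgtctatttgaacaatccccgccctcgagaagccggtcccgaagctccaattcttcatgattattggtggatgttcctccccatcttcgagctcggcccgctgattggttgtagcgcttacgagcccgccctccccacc
Rptor: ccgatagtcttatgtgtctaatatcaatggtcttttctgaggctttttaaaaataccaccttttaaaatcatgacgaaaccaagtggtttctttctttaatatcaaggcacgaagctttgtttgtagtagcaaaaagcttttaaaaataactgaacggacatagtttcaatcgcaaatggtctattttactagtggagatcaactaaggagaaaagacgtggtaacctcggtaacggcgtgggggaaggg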

How the data were processed

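Liver RNA of 12 mice was sequenced as paired-end reads on 1 lane. Per the submitters' notes and methods, the authors used CASAVA 1.8.2, FastQC, BWA with mm10 and DESeq2. The authors deposited FPKM values, which the file's header credits to HOMER, counting exon reads with 1 transcript per gene and no scaling between libraries. Con mice of day 30 carry no replicate numbers in the labels that match the columns, so they are named by their values.

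Reads per library were worked out from the spacing of the lowest FPKM (100.0% of 1500 values per library were whole within 0.1 reads), and 15748720 to 23345475 reads limit precision for genes with few reads. Pairs of mice in a group differed by more than sampling noise (chi-square per degree of freedom 24.7 to 44.1). log2(FPKM + 1) of 10593 genes was fitted with limma 3.58.1 in R 4.3.3, with empirical Bayes, a trend on expression and 1 model of the 4 groups; both days together used day as a covariate. Calls were 2-sided at a Benjamini-Hochberg adjusted p under 0.1. An exact permutation test of 3 against 3 cannot go below p = 0.1, so none was run. P-values measure the spread between mice. Tables were made in Python 3.11.15 with numpy 2.4.6 and pandas 2.3.3, and figures with matplotlib 3.10.9.

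The 10 genes, the gene lists and the markers were chosen with earlier results of these data known, so they give no independent support. Genes named were all 10, the up to 3 largest rises and 3 largest falls of each list among genes that passed at day 25 or day 30, and 7 fixed relatives and substrates; similar genes were the top 3 by correlation. At day 25, Con and CR mice that share a number in the sample titles were alike once group means were removed. Their correlation was 0.260 on average, with a lowest of 0.106 and a highest of 0.368. They may thus be pairs, which the labels do not state, and with 3 mice in a group few other matchings are possible. The main fits left pairing out, and a replicate block was fitted as an alternative. Mice of different numbers averaged -0.131. Removing the group means makes this value largely the mirror of the 0.260, so it adds no support for the pairing. Further alternatives were a pseudocount of 0.1, no filter, median-ratio scaling, TPM, quantile normalization, no trend, only the groups compared, an adjusted p under 0.05, a minimum log2 fold change of 1, each mouse left out, and voom on recovered reads.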

Additional observations from a re-analysis of the deposited data

How the results depend on the processing

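Ddit4 kept its direction and its call under each alternative and without any 1 mouse, with log2 fold changes from 1.71 to 2.65 at day 25 and 2.13 to 2.78 at day 30. Over both days Mtor, Rptor and Sesn3 kept theirs too, in 7 alternatives and 12 fits without 1 mouse. Of the 10 genes, 2 passed at day 25; the count was 1 at an adjusted p under 0.05, 1 with a log2 fold change of at least 1 and 1 without the filter. Of the 3 at day 30, 1 remained with the minimum fold and 1 under quantile normalization; of the 4 over both days, 1 had the minimum fold. In each of these, the gene that passed was Ddit4. With 1 mouse left out, counts ran from 1 to 3 at day 25, from 1 to 4 at day 30 and from 4 to 5 over both days. At day 25 the count was 1 without Con mouse 2 or 3 or CR mouse 2 or 3, and 3, with Rptor added, without Con mouse 1. The day 30 count was 1 without the Con mouse with Mtor at 7.68 FPKM or CR mouse 1, 2 without the Con mouse with Mtor at 7.76, and 4, with Sesn3 added, without CR mouse 3. The cause of these changes was not tested.

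The replicate block at day 25 gave 2 of 10, as without it, and changed no call of the 10 genes. Beside the values given with the results, it changed no other call of the named genes at day 25. At day 30 the numbers in the column names did not pair the mice by the measure used at day 25 (correlations of same-numbered mice 0.0456 to 0.181; 3 of 6 mice correlated best with their own number), and this block gave 4 of 10, adding Sesn3 (limma, adjusted p = 0.0681, range 0.0681 to 0.506). With it Cdkn1a (0.0231) and Tfeb (0.0913) also passed, and Akt1s1 (0.110) and Trib3 (0.117) did not.

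Genes that did not pass changed sign in places. Median-ratio scaling gave log2 fold changes of 0.0415 for Rictor, 0.0405 for Tsc2 and 0.0616 for Rheb at day 30, 0.0508 for Deptor and 0.00733 for Eif4ebp2 at day 25, and 0.0120 for Tsc2 and 0.00433 for Deptor over both days. Quantile normalization gave 0.0784 for Rictor, 0.0489 for Tsc2 and 0.0447 for Rheb at day 30 and 0.00450 for Tsc2 over both days, and TPM gave -0.00567 for Mlst8 at day 25. The scalings set the middle of all genes differently; further causes were not tested. With 1 mouse left out, values at day 25 ran from -0.20 to 0.0128 for Tsc1, -0.11 to 0.078 for Deptor, -0.0868 to 0.17 for Sesn1, -0.0492 to 0.0449 for Mlst8, -0.0898 to 0.22 for Eif4ebp1 and -0.14 to 0.038 for Eif4ebp2. At day 30 they ran from -0.0974 to 0.0362 for Rictor, -0.0883 to 0.0307 for Rheb, -0.21 to 0.0259 for Deptor, -0.0524 to 0.19 for Sesn1, -0.14 to 0.0214 for Mlst8 and -0.21 to 0.0613 for Eif4ebp2. Over both days they ran from -0.12 to 0.00601 for Deptor and -0.00173 to 0.12 for Sesn1. Tsc1 passed over both days without CR mouse 3 of day 25 (limma, adjusted p = 0.0687; range without 1 mouse 0.0687 to 0.428). Depth limits precision for Sesn3, with 52 to 154 reads per library.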
